A study of Rattus norvegicus with 13 samples.

Results

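The high mobility group (HMG) genes encode small, abundant chromatin proteins, and 9 of them were followed in cultured rat lenses: Hmgb1, Hmgb2, Hmgb3, Hmgn1, Hmgn2, Hmgn3, Hmgn5, Hmga1 and Hmga2. They were chosen by gene name, with the probe set of the highest mean over all arrays standing for a gene. Of the 9 listed genes, 7 had a probe set that carried their name alone, among 18166 such genes on the array, and 5 of these 7 reached a log2 signal of 5 in at least 1 array, the study's minimum, as did 6778 genes in all. The choice between probe sets used measured signals for Hmgn5 alone, which had 2. The readout was a whole-transcript microarray, the GeneChip Rat Gene 2.0 ST, in which several short probes make up a probe set, and the values are log2 signals as the authors deposited them.

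The lenses came from male Sprague Dawley rats 6 weeks of age and were cultured whole in M199 medium with bovine serum albumin. In the inhibitor groups, lenses that had turned opaque in 30 mM galactose received inhibitors of histone acetyltransferases (HATs), the enzymes that acetylate histones, and were cultured to Day 6. These groups had 1 array each and were TH1834 at 50 µM, an inhibitor of Tip60, C646 at 40 µM with CPTH2 at 80 µM, CBP30 at 10 µM with CPTH2 at 80 µM, and C646, CBP30 and CPTH2 alone at the same doses. The label of the combined CBP30 and CPTH2 sample names CPTH2 at both doses, so its CBP30 is taken from the sample title and the study's methods, and a supplementary list of inhibitors gives a lower dose of CBP30. C646 and CBP30 target CBP/p300 and CPTH2 targets Gcn5. The galactose groups were cultured in 30 mM galactose for 6 days (3 arrays) or 4 days (3 arrays). The control was 1 array of a lens cultured for 4 days with water in place of galactose, so galactose Day 6 and the inhibitor groups had also been cultured for longer than the control. By the study's methods both lenses of a rat were first made opaque, after which 1 was given an inhibitor in DMSO and its partner DMSO only. The labels do not say which arrays came from partner lenses, whether the galactose arrays are DMSO lenses or whether replicates came from separate animals, so no pairing could be used. The p-values therefore measure the spread between these samples, which may be technical.

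HMG proteins bend or loosen chromatin without being histones. The HMGB proteins carry HMG boxes that bind and bend DNA, the HMGN proteins bind the nucleosome itself and compete with linker histone H1, and the HMGA proteins bind the minor groove of AT-rich DNA with short motifs called AT hooks. Many of them are abundant in dividing and embryonic cells and decline in differentiated ones, and HMGB1 also acts as an alarm signal outside the cell. In the lens, division is confined to the epithelium, while the fibre cells that form the bulk of the tissue lose their nuclei.

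The arrays had median log2 signals between 5.62 and 5.89 over the 6778 genes. Lens fibre and crystallin markers were present, with 9 of 12 and 9 of 15 listed genes kept, and 0 of 11 photoreceptor, 0 of 2 corneal epithelium and 0 of 4 vascular endothelium markers with a probe set reached a signal of 5. The 3 red blood cell markers had no probe set of their own name and were not measured. Of the pigment epithelium markers 1 of 8 was kept (Mitf), and of the macrophage and immune markers 2 of 12 (Cd68 and Lyz2), whose mean was 4.41 to 5.48 in the inhibitor arrays, 4.05 to 4.77 on galactose Day 6 and 3.52 to 4.41 on galactose Day 4, against 4.27 in the control. These 2 went opposite ways, with differences from the control on Day 6 of 1.27 for Cd68 and -1.16 for Lyz2. The mean log2 signal of 8 kept lens epithelium markers, of 10 listed, lay between 5.10 and 7.06 in the inhibitor arrays, between 5.94 and 6.81 on galactose Day 6 and between 5.70 and 6.72 on galactose Day 4, against 7.57 in the control, with replicate 1 the lowest of each day. In such bulk samples, fewer cells of a type and less RNA per cell cannot be told apart. The limma fit took all 13 arrays, with each condition as a group, two-sided tests and Benjamini-Hochberg adjustment over the 6778 genes, and a gene was called at an adjusted p under 0.05. Replicates existed for the galactose days alone, and the lone arrays were assumed to vary like them.

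Hmgb2 and Hmga1 had higher signals in galactose lenses than in the control. Hmgb2 was called on both days, at about 7 times the control level, and Hmga1 was called on Day 6. Hmgn1 lay above the control in all 6 galactose arrays without passing the test, and Hmgn3 and Hmgb3 had small negative differences.

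Hmgb2, an HMG-box protein that is plentiful in proliferating cells, was the member with the largest difference. Its RefSeq gene lies on chromosome 16 from 37721374 to 37723950 (GRCr8, minus strand). Its log2 signal was 7.20, 7.44 and 7.71 on galactose Day 6 and 7.42, 7.59 and 7.51 on galactose Day 4, against 4.59 in the control. All 6 galactose arrays lay more than 2 log2 units above the control array, and the days overlapped with each other. On Day 6 the log2 difference from the control was 2.86 (standard error 0.24, adjusted p = 0.00119 in limma), a 7.27-fold higher signal, and on Day 4 it was 2.92 (standard error 0.24, adjusted p = 0.000903), a 7.57-fold higher signal. It ranked 4 of 6778 genes by p on Day 6 and 5 on Day 4. The control signal lay under 5, so the sizes are not exact. Hmgb2 was called in both comparisons under all 18 settings that were run.

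Hmga1, an AT-hook protein of embryonic and dividing cells, maps to chromosome 20 from 5612902 to 5620596 (plus strand). Its log2 signal was 10.36, 11.08 and 10.80 on galactose Day 6 and 10.47, 10.25 and 10.53 on galactose Day 4, against 9.23 in the control. Every galactose array was above the control by at least 1 log2 unit, and the days overlapped. The difference was 1.51 on Day 6 (standard error 0.29, adjusted p = 0.0231), 2.86-fold, and 1.19 on Day 4 (standard error 0.29, adjusted p = 0.0561), 2.28-fold. The Day 6 call was lost without Day 6 replicate 2 (1.35, adjusted p = 0.0578) or Day 6 replicate 3 (1.49, adjusted p = 0.0584), without the filter on signal (adjusted p = 0.0566) and with each probe set fitted as its own feature (adjusted p = 0.0895). The Day 4 difference was called without Day 6 replicate 1 (adjusted p = 0.0304), without replicate 1 of both days (adjusted p = 0.0316), with the prior variance as a trend (adjusted p = 0.0409) and with arrays centred on their medians (adjusted p = 0.046).

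Hmgn1, a nucleosome-binding protein, maps to chromosome 11 from 48891813 to 48897732 (minus strand). Its log2 signal was 7.64, 8.04 and 7.87 on galactose Day 6 and 7.28, 7.99 and 8.20 on galactose Day 4, against 6.73 in the control. The galactose arrays all lay above the control, and replicate 1 was the lowest of each day. The difference was 1.12 on Day 6 (standard error 0.34, adjusted p = 0.0901) and 1.09 on Day 4 (standard error 0.34, adjusted p = 0.105). Without Day 4 replicate 1 both were called, at 1.12 (adjusted p = 0.031) and 1.36 (adjusted p = 0.0305), and without replicate 1 of both days at 1.23 (adjusted p = 0.0173) and 1.36 (adjusted p = 0.0187).

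Hmgn3, a nucleosome-binding protein found in endocrine and neural cells among others, and Hmgb3, an HMG-box protein of stem and progenitor cells, had negative differences from the control on both days, and neither was called. Hmgn3 was at 6.70, 6.55 and 6.47 on Day 6 and 6.39, 6.46 and 6.44 on Day 4, against 6.77 in the control. All 6 galactose arrays lay below the control, by differences of -0.19 on Day 6 (95% interval -0.65 to 0.26, adjusted p = 0.62) and -0.33 on Day 4 (-0.79 to 0.12, adjusted p = 0.379). Hmgb3 was at 5.03, 4.50 and 4.65 on Day 6 and 4.63, 4.80 and 4.35 on Day 4, against 4.96 in the control. It was kept through the single value of 5.03, and its other 12 arrays were under 5. Just outside the minimum was Hmgn5, whose highest array reached 4.37. Hmga2, the AT-hook protein best known from embryonic growth and tumours, had signals between 1.72 and 2.74, and neither Hmgn5 nor Hmga2 entered the test.

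**Figure D1:**
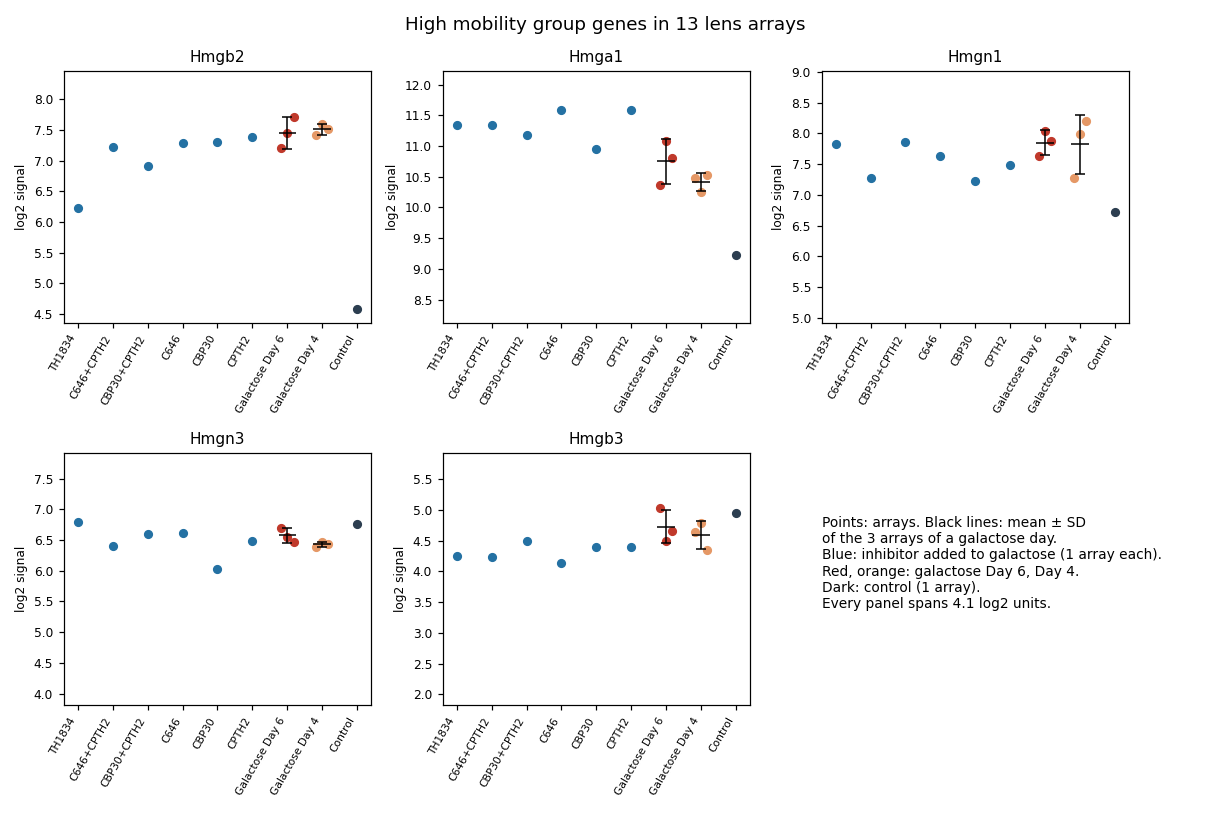
Log2 signal (vertical axis) of the 5 kept HMG genes in each of 13 arrays, with inhibitor groups on the left, then galactose Day 6, galactose Day 4 and the control; points are arrays and black lines are the mean ± SD of the 3 arrays of a day. Hmgb2 stands at 7.20 to 7.71 with galactose alone, at 6.24 with TH1834 and at 4.59 in the control, while Hmgn3 and Hmgb3 vary by less than 1 log2 unit over all arrays.

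On galactose Day 6, 2 of the 5 tested members were called, both higher, against a background of 2.8% of genes called higher (190 of 6778) and 5.49% called in either direction. On galactose Day 4, 1 of 5 was called, against 2.33% called higher (158 of 6778) and 3.78% in either direction. The median difference of the 5 members was 1.12 on Day 6 and 1.09 on Day 4, against -0.01 and 0.05 over all 6778 genes, and 3 of 5 members were positive on each day. Both comparisons used the same control array. The members were proposed with earlier results of these arrays known, so these shares are a description. In addition, 2 of the 5, Hmgb2 and Hmgb3, were under 5 in the control and passed the minimum through other arrays, which favours positive differences.

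**Figure D2:**
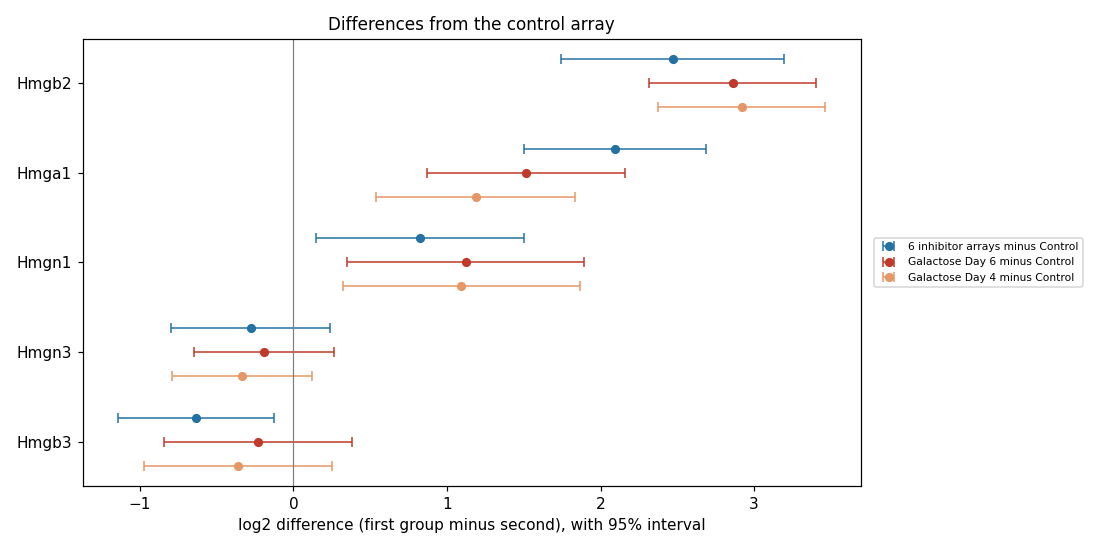
Log2 difference from the control array (horizontal axis, with the 95% interval of the limma fit) of the 5 kept HMG genes for the 6 inhibitor arrays together, galactose Day 6 and galactose Day 4. The intervals of Hmgb2, Hmga1 and Hmgn1 lie above 0 in all 3 comparisons, before any adjustment for the number of genes.

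The 250 bases before the RefSeq start are shown for Hmgb2, Hmgn1 and Hmgb3, the 3 kept members with a window outside the gene, as these had large, middling and negative differences and can be set against each other. They are given 5′ to 3′ on the strand of the gene (RefSeq, GRCr8), from chr16:37723951-37724200 (minus), chr11:48897733-48897982 (minus) and chrX:154340856-154341105 (plus, the first of 3 starts). Capitals mark the letters CCAAT and GGGCGG on either strand, and no match overlapped another.
Hmgb2: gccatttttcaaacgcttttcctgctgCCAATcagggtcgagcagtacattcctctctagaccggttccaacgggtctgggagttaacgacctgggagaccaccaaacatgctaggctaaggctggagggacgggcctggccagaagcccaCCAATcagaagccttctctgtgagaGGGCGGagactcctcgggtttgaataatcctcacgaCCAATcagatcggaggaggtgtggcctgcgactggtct
Hmgn1: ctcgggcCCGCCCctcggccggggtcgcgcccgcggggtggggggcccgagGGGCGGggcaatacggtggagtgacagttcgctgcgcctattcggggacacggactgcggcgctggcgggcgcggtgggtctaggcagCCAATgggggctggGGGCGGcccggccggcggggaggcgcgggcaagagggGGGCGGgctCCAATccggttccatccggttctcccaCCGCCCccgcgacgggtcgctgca
Hmgb3: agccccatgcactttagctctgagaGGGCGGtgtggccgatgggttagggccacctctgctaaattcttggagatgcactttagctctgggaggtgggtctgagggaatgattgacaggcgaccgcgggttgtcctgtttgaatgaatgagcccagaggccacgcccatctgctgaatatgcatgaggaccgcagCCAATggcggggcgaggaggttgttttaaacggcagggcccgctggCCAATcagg

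Hmgb2 held 3 CCAAT matches, which end 219, 95 and 34 bases before the start and all read in the direction of the gene, and 1 GGGCGG. At least 3 CCAAT matches were found in 2.52% of the 33469 RefSeq promoter windows of this length, and at least 1 in 34%. Hmgb1, which had no probe set of its own name, also held 3 CCAAT matches. Hmgn1 and Hmgb3 held 2 CCAAT matches each, as did Hmgn3 in a window within its gene, a number reached by 9.42% of windows. Hmgn1 held 5 GGGCGG matches and Hmgb3 held 1. The counts of Hmgb3 depend on the start chosen, as its 3 windows held 2, 2 and 0 CCAAT and 1, 0 and 4 GGGCGG. For Hmga1 the window of the table lies within the span of the gene and is not printed; it held 0 CCAAT and 5 GGGCGG, a number reached by 1.72% of windows. Hmgb3, with 2 CCAAT matches, had a difference of -0.23 from the control on Day 6. A match is a run of letters and was not tested for binding.

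A further probe set enters the value that the study gives for Hmgb2, and which transcript it reads was not tested. The values that the study's table gives for Hmgb2 equal the mean of the named probe set and of one that carries no gene name in the platform annotation, within 4.891e-06 on the log2 scale. The unnamed probe set was at 8.18, 8.17 and 8.22 on Day 6 and 8.92, 8.53 and 8.33 on Day 4, against 5.56 in the control. All 6 galactose arrays were again above the control by more than 2 log2 units. The unnamed probe set averaged 8.19 on Day 6 and 8.59 on Day 4, and between the days 0% of the 10971 kept probe sets were called. Fitted over the 10971 kept probe sets, of which 0.665% were called on Day 6 and 0.51% on Day 4, its difference was 2.63 on Day 6 (standard error 0.26, adjusted p = 0.02) and 3.04 on Day 4 (standard error 0.26, adjusted p = 0.0126). The named probe set passed in that fit as well (adjusted p = 0.0172 on Day 6 and 0.0126 on Day 4). With the mean of both as the value of Hmgb2, the differences were 2.74 on Day 6 (adjusted p = 0.000915) and 2.98 on Day 4 (adjusted p = 0.000398).

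Hmgn2, a nucleosome-binding protein close to Hmgn1, had 2 probe sets that name it together with the pseudogene Hmgn2-ps4, so its signal cannot be told apart from that of the copy. The first was at 9.24, 9.50 and 9.14 on Day 6 and 8.73, 9.34 and 9.52 on Day 4, against 7.53 in the control. The second was at 9.10, 8.93 and 8.82 on Day 6 and 9.47, 9.24 and 9.13 on Day 4, against 7.51 in the control. Every galactose array lay above the control in both, and the probe sets gave the Day 4 arrays in opposite orders. The second was called on Day 4, at 1.77 above the control (standard error 0.23, adjusted p = 0.034), and not on Day 6, with 1.44 (adjusted p = 0.0564); the first was called on neither day, with 1.76 on Day 6 (adjusted p = 0.0782) and 1.67 on Day 4 (adjusted p = 0.112). A related unnamed probe set, which the study's table assigns to LOC100362827, was at 7.23, 7.22 and 6.98 on Day 6 and 7.42, 7.27 and 7.24 on Day 4, against 5.88 in the control, with differences of 1.26 (adjusted p = 0.0643) and 1.43 (adjusted p = 0.0544).

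Hmgb1, the most studied HMG-box protein, had no probe set of its own name. Of 4 probe sets named for the pseudogene Hmgb1-ps33, 2 held identical values, at 8.40, 8.37 and 8.42 on Day 6 and 8.28, 8.49 and 8.32 on Day 4, against 7.95 in the control. Their differences of 0.45 on Day 6 (adjusted p = 0.278) and 0.42 on Day 4 (adjusted p = 0.369) were not called, and which transcript they read was not tested. The third lay at 7.48 to 7.62 in the galactose arrays, against 7.11 in the control, and the fourth at 4.24 to 5.49, against 5.45.

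**Figure D3:**
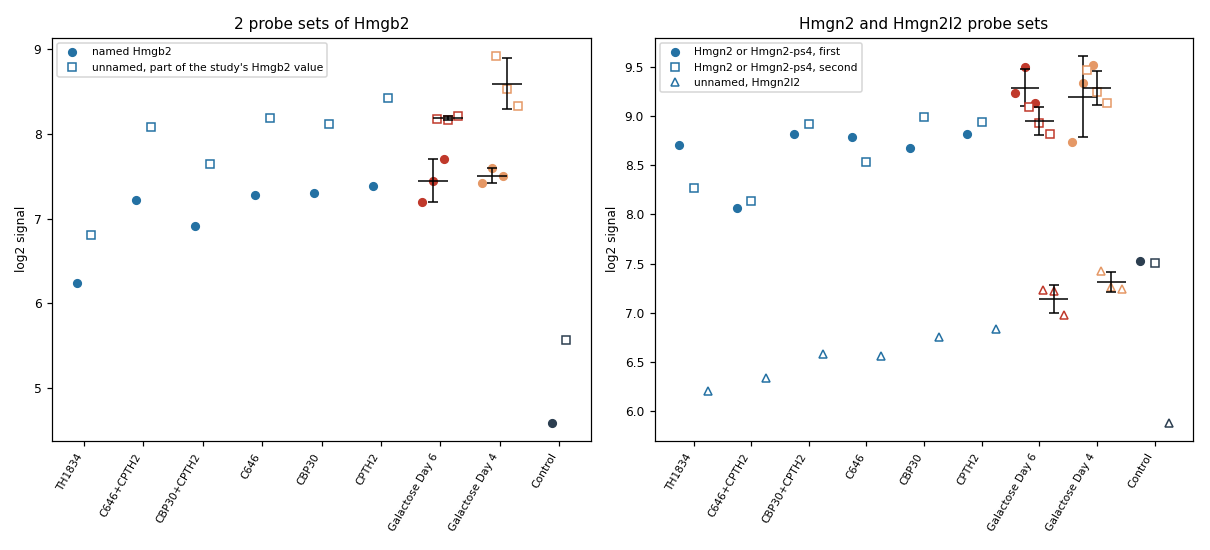
Log2 signal (vertical axis) of the probe set named Hmgb2 and the unnamed one in the study's Hmgb2 value (left), in 13 arrays. The Hmgn2 and LOC100362827 (Hmgn2l2) probe sets are on the right. Inhibitor groups are on the left of each panel, then galactose Day 6, galactose Day 4 and the control. Black lines are the mean ± SD of 3 arrays. The named and unnamed probe sets of the left panel are lowest in the control, at 4.59 and 5.56, and next lowest with TH1834, at 6.24 and 6.81.

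Between the days, no member was called in Day 6 minus Day 4. limma called 0 of 6778 genes there, 0% of the total, with 363 at an unadjusted p under 0.05, of which 0 were members. The difference of Hmga1 was 0.33 (95% interval -0.13 to 0.79, adjusted p = 0.883), and those of Hmgb2 and Hmgn1 were -0.06 (-0.44 to 0.33) and 0.03 (-0.52 to 0.58).

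Among the inhibitor lenses, Hmgb2 was lowest with TH1834, the Tip60 inhibitor, and Hmga1 was above the Day 6 mean with all 6 treatments. No member passed the test against galactose Day 6 with any treatment. Each treatment had 1 array, so these values have no replicates of their own.

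Hmgb2 was at 6.24 with TH1834, 7.22 with C646+CPTH2, 6.92 with CBP30+CPTH2, 7.28 with C646, 7.31 with CBP30 and 7.38 with CPTH2, against 7.20, 7.44 and 7.71 on galactose Day 6. TH1834 and CBP30+CPTH2 lay below all 6 galactose arrays, and the other 4 treatments lay within the range of Day 6. With TH1834 the difference was -1.21 (standard error 0.24, 95% interval -1.76 to -0.67, adjusted p = 0.149), a 2.32-fold lower signal that ranked 30 of 6778 genes by p, and the signal was still 1.65 log2 units above the control. Here limma called 4 genes, 0.059% of the total, and 946 had an unadjusted p under 0.05, Hmgb2 among them. The unnamed probe set of Hmgb2 was at 6.81 with TH1834 and at 7.64 to 8.42 with the other 5, against 8.17 to 8.22 on Day 6, and the mean of both probe sets gave a difference of -1.30 (adjusted p = 0.0894). The adjusted p lay between 0.0727 and 0.389 over 18 settings. With CBP30+CPTH2 the difference of Hmgb2 was -0.53 (adjusted p = 0.248, with 0% of genes called).

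In the order of its levels, Hmgb2 ran from galactose Day 4 and Day 6 through CPTH2, CBP30, C646 and C646+CPTH2 with steps under 0.08, less than the pooled SD of 0.19 of the galactose arrays. The steps to CBP30+CPTH2 (0.30), to TH1834 (0.68) and to the control (1.65) exceeded that SD. This order was read from lone arrays and was not tested.

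Hmga1 was at 11.34 with TH1834, 11.33 with C646+CPTH2, 11.17 with CBP30+CPTH2, 11.58 with C646, 10.95 with CBP30 and 11.59 with CPTH2, against 10.36, 11.08 and 10.80 on galactose Day 6. All but CBP30 lay above the Day 6 arrays. The differences from Day 6 were between 0.21 for CBP30 (95% interval -0.44 to 0.85) and 0.84 for CPTH2 (0.19 to 1.49, adjusted p = 0.347, with 0.0295% of genes called), and that of C646 was 0.83 (adjusted p = 0.995, with 0% called). Taken as 1 group, the 6 inhibitor arrays averaged 11.33 and Day 6 averaged 10.75, a difference of 0.58 (standard error 0.18, adjusted p = 0.152), where the test called 1 gene, 0.0148% of the total. The median of all genes was 0.11 higher in that comparison. With arrays centred on their medians the difference of Hmga1 was 0.46 (adjusted p = 0.247), and without Day 6 replicate 1 it was 0.39 (adjusted p = 0.473).

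Hmgn1 was at 7.83 with TH1834, 7.28 with C646+CPTH2, 7.86 with CBP30+CPTH2, 7.63 with C646, 7.23 with CBP30 and 7.49 with CPTH2, against 7.64, 8.04 and 7.87 on galactose Day 6. C646+CPTH2, C646, CBP30 and CPTH2 lay below the Day 6 range, with differences of -0.57, -0.22, -0.62 and -0.36, and none was called (adjusted p = 0.447, 0.995, 0.421 and 0.684). With C646+CPTH2, 58 genes were called, 0.856% of the total, and 0 members were. Hmgn3 had its lowest signal, 6.03, with CBP30, a difference of -0.55 (unadjusted p = 0.0242, adjusted p = 0.251 in limma, with 0% of genes called), and Hmgb3, which had passed the minimum through 1 Day 6 array alone, was at 4.13 to 4.50 with the 6 treatments, against 4.50 to 5.03 on Day 6, so that its comparison with Day 6 is not independent of the filter.

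The shared Hmgn2 probe sets were both lowest with C646+CPTH2 among the 6 treatments, at 8.07 and 8.14. The other 5 treatments lay between 8.68 and 8.82 in the first and between 8.27 and 8.99 in the second. The first lay below Day 6 (9.14 to 9.50) in every inhibitor array. The second did not, as CBP30 (8.99), CPTH2 (8.94) and CBP30+CPTH2 (8.92) lay within its Day 6 range of 8.82 to 9.10. C646, C646+CPTH2 and TH1834 lay below that range. The related LOC100362827 probe set was lowest with TH1834 (6.21) and next lowest with C646+CPTH2 (6.34). All 6 of its inhibitor arrays, at 6.21 to 6.83, lay below its Day 6 range of 6.98 to 7.23. C646+CPTH2 was also the array with the lowest mean of the lens epithelium markers, at 5.10, and the highest mean of the 2 kept macrophage and immune markers, at 5.48. Only 1 of these 2 had a positive difference from Day 6 with C646+CPTH2, so that mean does not stand for both. The part of the marker lists in the Hmgn2 values was not tested.

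**Figure D4:**
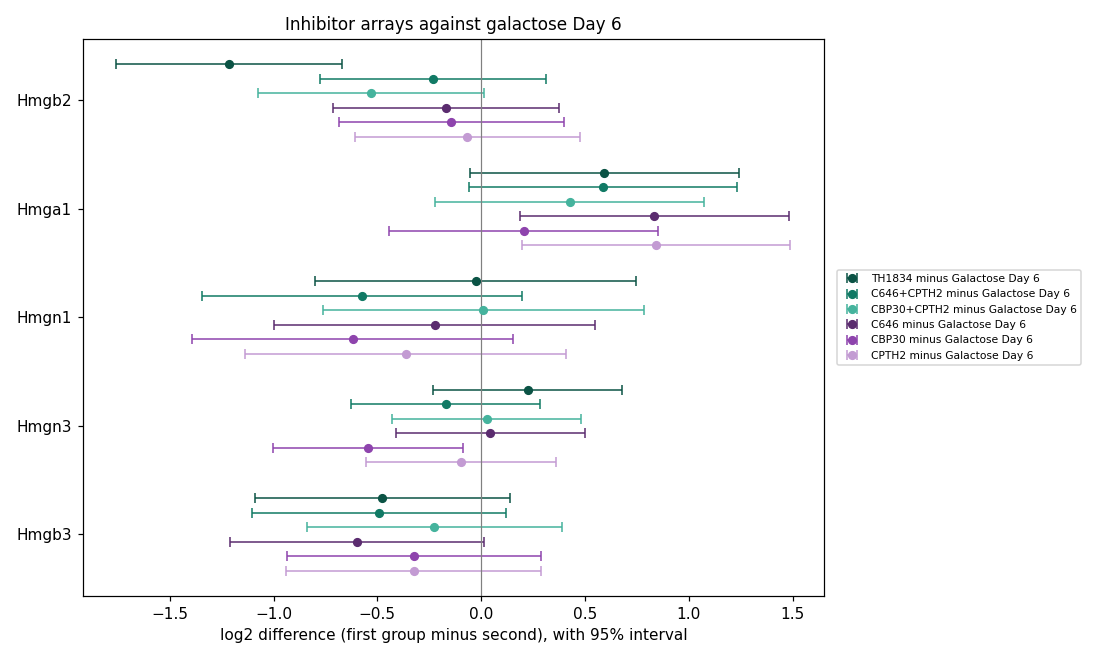
Log2 difference of each inhibitor array from the mean of galactose Day 6 (horizontal axis, with the 95% interval of the limma fit) for the 5 kept HMG genes. For Hmgb2 the interval of TH1834, from -1.76 to -0.67, lies below 0 and those of the other 5 treatments include 0; no difference passed the test over all genes.

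Against the control, the 6 inhibitor arrays together still had higher Hmgb2 and Hmga1. The 6 are different treatments with 1 array each, so the SD, standard error and p-value include differences between treatments. Hmgb2 averaged 7.06 ± 0.43 in the inhibitor arrays (SD, n = 6 treatments), against 4.59 in the control, higher by 2.47 (standard error 0.34, adjusted p = 0.00106 in limma). Hmga1 averaged 11.33 ± 0.24, against 9.23, a difference of 2.10 (standard error 0.28, adjusted p = 0.000778). All 6 arrays lay above the control for both genes and for Hmgn1, whose difference of 0.82 was not called (adjusted p = 0.133). Hmgb3 was lower in all 6, by a difference of -0.64 (adjusted p = 0.123). In this comparison 2 of 5 members were called, against 3.97% of genes called higher and 6.14% in either direction, and both calls were made under all 23 settings run.

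The study describes TH1834, C646+CPTH2 and CBP30+CPTH2 as reducing opacity, and C646, CBP30 and CPTH2 alone were counted here as less effective, although a weak effect is described for CPTH2. Hmgb2 was at 6.24, 7.22 and 6.92 in the 3 effective treatments, against 7.28, 7.31 and 7.38 in the other 3. The nearest arrays of these groups, C646+CPTH2 and C646, lay 0.06 apart, less than the pooled SD of 0.19 of the galactose arrays. The difference between the groups was -0.53 (standard error 0.22, unadjusted p = 0.0323, adjusted p = 0.983 in limma). The 3 arrays of a group are different treatments and not replicates. Without the TH1834 array it was -0.25. limma called 0 genes here, 0% of the total, with 285 at an unadjusted p under 0.05, of which Hmgb2 was the only member. Hmga1 (-0.09), Hmgn1 (0.21), Hmgn3 (0.23) and Hmgb3 (0.02) had smaller differences.

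Genes of proliferation also had higher signals in galactose lenses than in the control. Of 24 listed, 9 were kept. Of these 9, 7 were under 5 in the control and passed the minimum through other arrays, which favours positive differences from the control. Passing it through galactose arrays also favours negative differences of the inhibitor arrays from Day 6. The counts in both kinds of comparison are therefore a description. On Day 6 all 9 had positive differences with a median of 1.34, and 4 were called, and on Day 4 all 9 were positive with a median of 1.26, and 3 were called. Over all 6778 genes, 49.2% were positive and 2.8% called higher on Day 6, and 54.7% and 2.33% on Day 4. The 4 called on Day 6 were Rrm2, a ribonucleotide reductase subunit, at 2.65 (adjusted p = 0.0316), Tyms, thymidylate synthase, at 1.87 (adjusted p = 0.0223), Mcm4, of the replicative helicase, at 1.58 (adjusted p = 0.00709), and the polymerase clamp gene Pcna at 1.34 (adjusted p = 0.0104). The mean log2 signal of the 9 was 4.88 with TH1834 and 4.63 to 5.44 with the other treatments, 5.28 to 5.77 on Day 6 and 5.03 to 5.68 on Day 4, against 4.25 in the control. With TH1834 this mean lay below all 6 galactose arrays, as Hmgb2 did, and 8 of the 9 had negative differences from Day 6 (median -0.61, 0 called), among them Rrm2 at -1.83. Of all genes, 62% had positive differences with TH1834 and 0.059% were called. C646+CPTH2, CBP30+CPTH2 and CBP30 had lower means of this list than TH1834. With these treatments 0, 2 and 0 of the 9 had positive differences from Day 6, with medians of -0.51, -0.39 and -0.77. Over all genes, 53%, 64.7% and 57.6% were positive in these comparisons. Also with TH1834, the lens epithelium markers were at 7.06, above the Day 6 range of 5.94 to 6.81, and the macrophage and immune markers at 5.21, above the Day 6 range of 4.05 to 4.77. The part of these lists in the values of Hmgb2 was not tested.

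**Figure D5:**
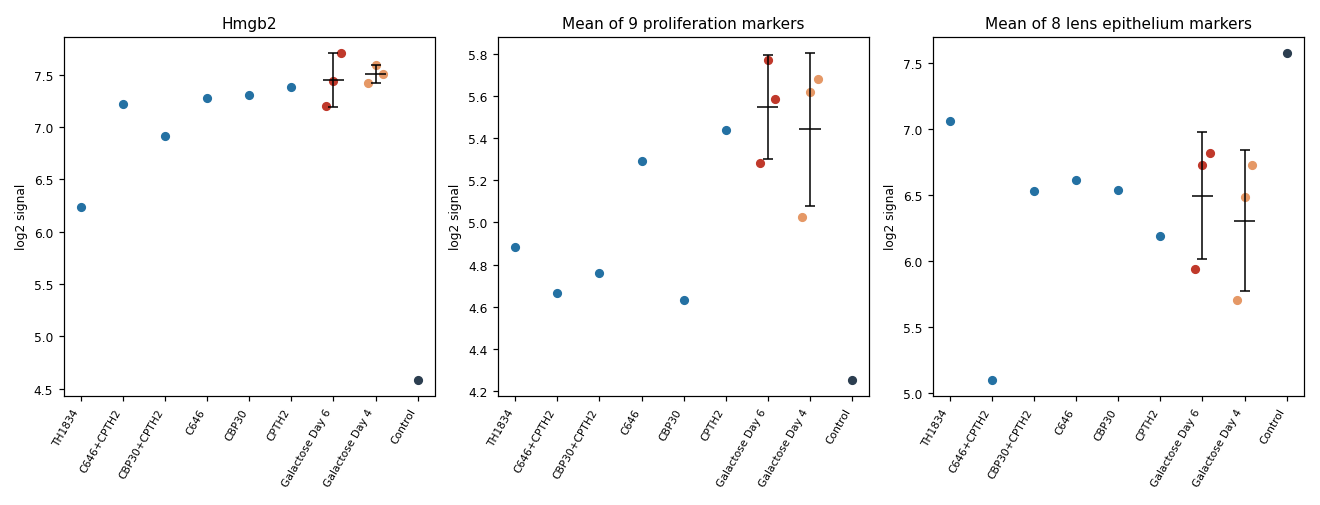
Log2 signal of Hmgb2 (left) beside the mean log2 signal of 9 proliferation markers (middle) and 8 lens epithelium markers (right) in 13 arrays, with inhibitor groups on the left, then galactose Day 6, galactose Day 4 and the control; black lines are the mean ± SD of 3 arrays. The control is lowest for Hmgb2 and the proliferation markers, at 4.59 and 4.25, and highest for the lens epithelium markers, at 7.57.

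Genes that work with HMG proteins are given by their calls on Day 6, where 5.49% of all genes were called and 2.8% were called higher. The histone chaperone Nasp was at 4.31 in the control and passed the minimum through other arrays, which favours a positive difference. Among histone chaperones, which load histones on DNA, 8 of 15 were kept and 2 were higher on Day 6, with Nasp, a carrier of free histones, at 1.64 (adjusted p = 0.0139) and Rbbp7, a histone-binding subunit of several chromatin complexes, at 1.24 (adjusted p = 0.0454). In the SET complex, in which HMGB2 takes part in human cells, 6 of 7 were kept and 0 were called, with a median of -0.22 on Day 6. Those of the highest signals were Anp32b at -0.23, Trex1 at -0.42, Anp32a at -0.27 and the apurinic endonuclease Apex1 at 0.47 (adjusted p = 0.204). Of 4 kept genes that release or bind HMGB1, the nuclear exporter Xpo1 was higher, by 1.20 (adjusted p = 0.0415). Of 17 kept genes listed as other HMG-box proteins, 0 were higher and 2 were lower on Day 6, Tox3 by -1.52 (adjusted p = 0.0144) and Tcf7l2, a transcription factor of the Wnt pathway, by -0.88 (adjusted p = 0.0382), and the median of the 17 was -0.21. Tcf7l2 averaged 4.28 on Day 6, against 5.16 in the control, so the filter favours a negative difference for it. The 17 include Supt16h, at 0.42, which has no HMG box itself. Hmg20b, a subunit of a histone demethylase complex, was at -0.84 (adjusted p = 0.0643), and 0 of the 3 kept regulators linked to Hmga2 and let-7 were called. Of 18 linker histone names, 0 stood alone on a probe set.

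The genes whose pattern over the 13 arrays was most like that of a member were named by the root mean square difference of their centred log2 signals. For Hmgb2 these were Rbm3, a cold-inducible RNA-binding protein (0.264), Tmco4 (0.270) and Gtf2h4, a subunit of the general transcription factor TFIIH (0.318). Rbm3 was at 7.02 with TH1834, 7.99 on Day 6 and 8.02 on Day 4, against 4.995 in the control. For Hmgn1 they were Vamp3 (0.193), Rbbp7 (0.201) and Ran (0.207), and for Hmga1 they were Thoc1 (0.270), Hmox1 (0.292) and Ccne2 (0.310). These likenesses are descriptions over arrays of which 6 share galactose alone and 6 share galactose with an inhibitor.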

How the data were processed

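The deposited table held log2 signals of 36685 probe sets on 13 arrays, which the authors preprocessed in R. How the probes were background-corrected, normalized and summarised is not given in the sources used here, and no normalization was added to the deposited log2 values. Gene names came from the platform annotation, and coordinates and promoter windows from RefSeq (GRCr8). Of 36685 probe sets, 18511 carried 1 gene name, 575 several and 17599 none.

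Genes that never reached a log2 signal of 5 were left out. limma 3.58.1 under R 4.3.3 was run with 1 group per condition (4 residual and 4.97 prior degrees of freedom), with the 6 inhibitor arrays as 1 group (9 residual) or as 2 groups of 3 (8 residual), and was tested on simulated data. Intervals are 95%. Members and gene lists were chosen with earlier results of these data known. From each list, at most 4 genes are named: the largest differences on Day 6 among those called, otherwise the highest signals. Alternatives covered the filter on signal, median centring and quantile normalization, the mean of probe sets, trended and robust priors, other reference arrays, a replicate block and leaving out arrays. Fitting each probe set, and averaging both Hmgb2 probe sets, were chosen after seeing the data. The number of arrays limits the precision. Opacity, histology and RT-qPCR were not analysed here.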

Additional observations from a re-analysis of the deposited data

Results flagged for a closer look

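In the first probe set shared by Hmgn2 and Hmgn2-ps4, the C646+CPTH2 array, at 8.07, lay apart from the other 5 inhibitor arrays at 8.68 to 8.82, and its gap to the nearest was 0.811 of the range of the 6. It was the 1 array so marked among 15 probe sets of the family, where chance marks about 5% of groups. The probe set without a gene name that enters the study's value of Hmgb2 was not used in the comparisons over genes. It averaged 8.19 on galactose Day 6, above 5.56 in the control.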

How the results depend on the processing

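Hmgb2 was called against the control on both galactose days and over the 6 inhibitor arrays under every setting run, and no member was called in the other 9 comparisons under any setting. The members called on Day 4 were 1 as reported, 2 with median centring, 2 with a trended prior, 1 to 2 leaving out 1 array and 3 without replicate 1 of both days. Those called on Day 6 were 2 as reported, 1 without the filter, 1 with each probe set as its own feature and 1 to 3 leaving out 1 array. The cause was not tested. Over 1088 values of single members under the alternatives, 1051 kept their direction and side of the threshold, 8 passed it, 4 lost it and 25 changed sign, all 25 of them uncalled. For Day 6 minus Day 4, Hmgb2 was 0.0026 with median centring, 0.024 without replicate 1 of both days and -0.19 to 0.067 leaving out 1 array; Hmgn1 was -0.14 without replicate 1 of both days and -0.24 to 0.22, and Hmgb3 -0.017 to 0.25, leaving out 1 array. For TH1834 Hmgn1 was -0.13 to 0.069. For CBP30+CPTH2 Hmgn1 was -0.015 with quantile normalization, -0.18 with median centring, -0.096 without replicate 1 of both days and -0.096 to 0.10 leaving out 1 array, and Hmgn3 was -0.095 and -0.17 with these scalings and -0.026 to 0.090 leaving out 1 array. For C646 Hmgn3 was -0.030 and -0.044 with these scalings and -0.0079 to 0.11 leaving out 1 array. For CPTH2 Hmgb2 was 0.084 as the mean of 2 probe sets and -0.19 to 0.062 leaving out 1 array. Over the 6 inhibitor arrays minus Day 6, Hmgn3 was -0.15 to 0.0052, and for effective minus less effective treatments Hmgb3 was -0.074 to 0.064 and Hmga1 -0.30 to 0.016, leaving out 1 array. The counts over all genes, and with them the shares set beside the members, ranged from 83 to 662 on Day 4 (256 as reported), 118 to 903 on Day 6 (372), 280 to 547 for the 6 inhibitor arrays minus the control (416), 16 to 402 for C646+CPTH2 (58), 1 to 10 for TH1834 (4), 0 to 67 for CBP30+CPTH2, 0 to 18 for CBP30, 0 to 5 for CPTH2 (2) and 0 to 13 for the 6 inhibitor arrays minus Day 6 (1). The highest counts of both days came without replicate 1. Replicate numbers 1 to 3 recur on both days, and the deviations of same-numbered arrays had correlations of 0.341, 0.0765 and 0.251. Those of differently numbered arrays ran from -0.295 to 0.138. Replicate 2 of each day had a higher correlation with replicate 3 of the other day (0.136 and 0.138) than with its own number. Same-numbered arrays were not treated as pairs. With the replicate block, Day 6 minus Day 4 still had 0 members called, and Hmga1 was at 0.33 (adjusted p = 0.716). The lone control and lone treatments, and signals under 5 with no detection call, limit every size given.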
